A study of Homo sapiens with 12 samples.

Results

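The HCT116 libraries were 3 of the 12 in the series, and they were compared with the 6 libraries of MHCC97H and A549 grown under the same 3 conditions. HCT116 is a human colon carcinoma line, MHCC97H a line from hepatocellular carcinoma and A549 a line from lung adenocarcinoma. Each line gave 1 poly(A) RNA library from untreated cells, 1 after GSK126 at 50 µM, which blocks the histone methyltransferase EZH2, and 1 after S2101 at 100 µM, which blocks LSD1, an enzyme that removes histone methyl groups. 1 more library per line, after 1 µM of the histone deacetylase inhibitor trichostatin A (TSA), stayed out of the main tests and served as a separate description. Only an alternative fit of all 12 libraries used the TSA libraries. HCT116 was kept in RPMI medium and the other lines in DMEM, so the line and its medium cannot be told apart. Each line stands for its tissue through 1 established culture only, and the labels name no separate cultures: the 3 libraries of a line are its 3 treatments. The p-values therefore measure a difference between lines against the spread within lines once the treatment is taken out, not against repeat cultures.

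Colon epithelium is specified by homeobox factors, CDX2 foremost, together with HNF and GATA factors, which direct a brush border and mucus programme. Epithelial cells hold each other through E-cadherin and tight junctions, a state kept by factors such as GRHL2 and OVOL1 and opposed by repressors of the ZEB family. HCT116 is known as a mismatch repair deficient line, whereas A549 is known for an altered KEAP1, the adaptor that marks the antioxidant factor NRF2 for destruction.

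The 12 libraries held 14468304 to 19061367 reads assigned to genes, with TMM factors of 0.925 to 1.1 in the 9 libraries tested. No pair of libraries of a line was alike within sampling noise, the chi-square per degree of freedom over genes being 10.3 to 105.7. The A549 library under S2101 stood apart: over 31 genes under 0.5 CPM (reads scaled to the same library size) in the untreated and GSK126 libraries of A549 and at 10 CPM or more under TSA, its median level was 8.41% of the TSA level. The GSK126 library of A549 was at 1.64% for the same genes, but the choice of genes kept it low, so it is no comparison. The S2101 libraries of HCT116 and MHCC97H, not used in the choice, were at 0.33% of 10 genes and 0.69% of 73 genes chosen likewise. Counts of genes are therefore given also without the A549 library under S2101. Of 16 markers of blood, vessel and stroma 9 had too few reads to be tested. PTPRC had at most 0.283 CPM and CDH5 at most 0.0668 CPM in any library. PECAM1 was tested and was lower in HCT116 than the mean of the other lines (log2 -2.33, adjusted p 1.68e-06, edgeR's quasi-likelihood test). It was not called lower against each of them, nor with the other lines as 1 group in the same test (log2 -3.73, adjusted p 0.133). COL1A1, a fibrillar collagen chain, was higher in HCT116 than in each other line, at 23.7, 38.1 and 25.2 CPM beside 0.227 to 11.3 CPM.

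Over the 14903 autosomal genes tested, 9663 (64.8%) differed between HCT116 and MHCC97H at an adjusted p under 0.05 and 8490 (57.0%) between HCT116 and A549, beside 8349 (56.0%) between MHCC97H and A549. A gene is called set apart here when HCT116 differed from each of the other lines in the same direction, each at an adjusted p under 0.05. By this rule 2829 genes (19.0%) were higher in HCT116 and 2654 (17.8%) were lower, while 804 (5.39%) lay between the other lines, called in opposite directions. Both contrasts share the HCT116 libraries. Against the mean of the other lines, 4911 genes (33.0%) were higher and 4558 (30.6%) lower. A difference of at least 4-fold from each line held for 637 of the higher genes (4.27% of all tested) and 687 of the lower ones (4.61%). Without the A549 library under S2101, 2468 were set apart higher and 2347 lower. A fit that treats MHCC97H and A549 as 1 group, so that their own difference counts as spread, called 2111 higher and 2122 lower. Scaling by library totals alone moved the median difference of all genes from 0.037 to 0.19 on the log2 scale and the set apart genes to 3494 higher and 2168 lower (61.7% higher, against 51.6%).

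**Figure D1:**
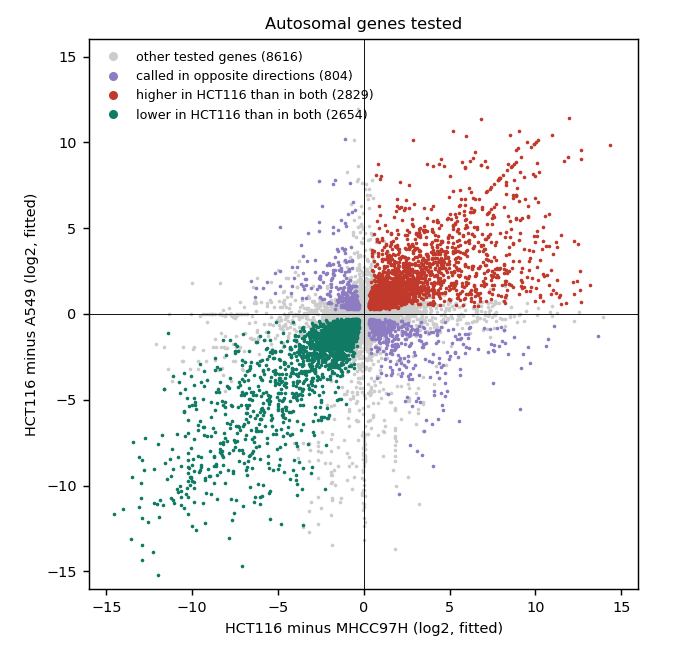
Fitted log2 difference of HCT116 from MHCC97H (horizontal axis) and from A549 (vertical axis) for the 14903 autosomal genes tested, 1 point a gene. The 2829 genes higher and the 2654 genes lower than in both other lines lie at the upper right and lower left, and the 804 genes called in opposite directions at the upper left and lower right. Both axes use the same HCT116 libraries.

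The genes with the largest excess over the nearer line were near 0 in both other lines. MT1E, a metallothionein that binds zinc and copper, had 215, 191 and 193 CPM in the untreated, GSK126 and S2101 libraries of HCT116 (libraries are given in this order throughout), 0.0675, 0.0647 and 0 CPM in MHCC97H, and 0.0663, 0.128 and 0 CPM in A549. The groups did not overlap, and with so few reads in A549 the ratio was 3094 (95% counting interval 1058 to 15004). MT1E has near-identical relatives beside it, so reads shared among metallothioneins make its level uncertain. CDH3, the gene of P-cadherin, stood at 147, 190 and 155 CPM in HCT116, at 0 in all 3 MHCC97H libraries and at 0.332, 0.064 and 0.128 CPM in A549. Against the floor of 3 reads over the 3 MHCC97H libraries, this was at least 2596-fold higher. GTSF1, a factor of the germline piRNA pathway, had 112, 99.2 and 91 CPM in HCT116 and at most 0.128 CPM in each of the other 6 libraries. The 15 named genes of this direction further held GRHL2, ESRP1, RAB25 and MAL2, which act in epithelial identity, splicing and apical transport, the stem cell surface protein PROM1, the secreted factors FGF19 and WNT16, the calcium-binding S100A14, the protease inhibitor CST6, the homeobox factor MKX, the embryonic globin HBE1 and the olfactory receptor OR51B4. In all 15, every HCT116 library lay above the other 6, which was part of the rule that chose them. Over all genes tested this order held for 2913 (19.5%), and for 2631 (17.7%) all 3 HCT116 libraries lay below the other 6.

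Several of the most strongly lower genes had no read at all in HCT116. CHFR, a ubiquitin ligase of the mitotic checkpoint, had 0 reads in the 3 HCT116 libraries, 48.5, 44 and 47.3 CPM in MHCC97H and 28.7, 45.7 and 31.4 CPM in A549. HCT116 was at least 795-fold lower than MHCC97H and at least 602-fold lower than A549, against a floor of 3 reads over its 3 libraries. NNT, the mitochondrial enzyme that makes NADPH from NADH, was also at 0 reads in HCT116, beside 58.5, 63.5 and 61 CPM in MHCC97H and 30.7, 26.8 and 29.8 CPM in A549, at least 497-fold more than in HCT116. STK32B, MSC, NID1, ZNF605 and ZNF229 were at 0 reads in HCT116 too. In these genes no library of HCT116 reached any library of the other lines, which was part of the rule that chose them.

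Other genes of this direction had few reads in HCT116 while being abundant elsewhere. TM4SF1, a tetraspanin-like surface protein, had 0, 0.2 and 0 CPM in HCT116, 584, 1005 and 819.5 CPM in MHCC97H and 674, 692 and 426 CPM in A549. KYNU, kynureninase of tryptophan breakdown, had 0.0567, 0 and 0 CPM in HCT116 and 207 to 346 CPM in the other 6 libraries. UCHL1, a deubiquitinase, had 0, 0.0668 and 0 CPM in HCT116, 198, 223 and 210 CPM in MHCC97H and 514, 563 and 594 CPM in A549. ALDH1A1, CBR1 and AKR1B15, enzymes that oxidise or reduce carbonyl groups, IGFBP4, which binds insulin-like growth factors, and N-cadherin (CDH2) complete the 15. AKR1B15 lies beside the near-identical AKR1B10, and its reads may in part be those of its neighbour.

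Some of the genes at these extremes lay beside each other on chromosomes. HBE1 (chr11:5268345-5269945) and OR51B4 (chr11:5301014-5301946) belong to a run at the beta-globin locus in which 7 of 7 tested genes were higher in HCT116, beside 19.0% of all genes. That count could hardly come out otherwise. All 7 were at or near 0 in the other lines and passed the filter on low counts only through HCT116. HBE1 and OR51B4 were themselves chosen for being high, and the other genes around them had too few reads to be tested. HBE1 itself, the embryonic epsilon globin, stood at 40.5, 57.2 and 57.2 CPM in HCT116 and at 0 to 0.113 CPM in the other 6 libraries. OR51B5 had 75.1, 65.7 and 60.5 CPM in HCT116 and at most 0.338 CPM elsewhere, and its groups did not overlap. The less abundant HBG2, OR51B2, OR51B6 and OR51M1 had 1.2 to 5.22 CPM in HCT116 and 0 in all 6 others. The adult globin gene HBB, 42.9 kb from HBE1 on the other side of HBG2, had no read in HCT116. The gene model of OR51B5 spans OR51B6 and OR51M1, and since no source used here states whether counting used strand, reads of overlapping models cannot be told apart.

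Lower genes lay near each other at the end of chromosome 12, where 6 of 10 tested genes around CHFR were lower, 1 was higher and 3 were not set apart. Beside this, 17.8% of all genes tested and 26.5% of those of chromosome 12 were lower. CHFR and ZNF605, which are among the 6, had been chosen for being lower. CHFR (chr12:132832356-132887618) and ZNF605 (chr12:132918306-132956306), a zinc finger gene, were both at 0 reads in HCT116. The next zinc finger genes were lower without being silent: ZNF26 had 4.82, 3.87 and 4.26 CPM in HCT116, 38.7, 28.4 and 29.7 CPM in MHCC97H and 18.2, 17.7 and 16.6 CPM in A549. ZNF84 had 13.4, 14.6 and 12.3 CPM, beside 52.1 to 55.9 CPM in MHCC97H and 29.6 to 42.4 CPM in A549. On the other flank ANKLE2 and GOLGA3 were lower as well, with log2 differences between -1.46 and -0.62 from either line, whereas POLE, farther out, was higher (0.76 and 0.73) and PXMP2 and PGAM5 were not set apart. The libraries of GOLGA3 and POLE overlapped between lines. In HCT116 under GSK126 GOLGA3 had 296 CPM and POLE 119 CPM, beside 185 and 165 CPM in untreated A549. Over the autosomes, 55.4% of the genes at least 4-fold higher in HCT116 had a set apart higher gene as next tested neighbour. This compares with 50.9% of all set apart higher genes and 32.4% of all genes tested. For the genes at least 4-fold lower the share with a lower neighbour was 57.1%, against 47.8% and 31.1%. Much of the excess was thus shared by set apart genes of any size.

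CDX2, the factor that marks the labelled tissue, was higher in HCT116 than in both other lines. It stood at 11.7, 11.6 and 11.3 CPM in HCT116, at 3.98, 7.57 and 5.44 CPM in MHCC97H and at 0.597, 0.96 and 0.255 CPM in A549. No library of another line reached those of HCT116, and the difference was 2.10-fold from MHCC97H (log2 1.07, SE 0.26, adjusted p 0.00562) and 19.5-fold from A549 (log2 4.29, SE 0.34, adjusted p 8.74e-06). In the edgeR fit with the other lines as 1 group CDX2 was not called (log2 1.94, adjusted p 0.181). CDX2 lies on chromosome 13, whose median log2 difference over 262 tested genes was 1.19 from MHCC97H and 0.34 from A549. The part of that shift in the level of CDX2 was not tested. CDX1, its partner in the colon, had 0 reads in all 9 libraries. Of the remaining colon markers, KRT20, LGALS4, CDH17 and VIL1 had at most 0.868 CPM in any HCT116 library, and GPA33 had at most 0.34 CPM in any library. CDX2 thus matched the colon label, while 6 of the 8 colon markers had under 1 CPM in every HCT116 library and KRT20, LGALS4, CDH17 and VIL1 were high in MHCC97H. Some liver and lung markers were low in all lines: ALB, APOA1 and TTR had at most 1.1 CPM in any library, and SFTPB 1.53 to 2.87 CPM. This does not hold for every liver gene, since CPS1 and others reached higher levels, given below.

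Of 22 intestinal transcription factors 18 were tested. 4 were higher in HCT116 than in each line (22.2%, beside 19.0% of all genes) and 6 lower (33.3%, beside 17.8%). The median log2 difference from the mean of the other lines was -0.67, beside 0.04 for all autosomal genes, but -0.09 with all 12 libraries and -1.13 with the other lines as 1 group. SOX9, a factor of the crypt base, had 70.5, 85.9 and 67.4 CPM in HCT116, 7.83, 11.8 and 9.06 CPM in MHCC97H and 17.4, 58.4 and 16.7 CPM in A549, and the GSK126 library of A549 came nearest. MYB, a factor of colon progenitors, and PDX1, the duodenal and pancreatic homeobox factor, were the other higher ones, at 1.94 to 6.18 CPM and 1.2 to 2.44 CPM in HCT116. Among the lower ones, HNF4A, the nuclear receptor of gut and liver epithelium, had 8.5, 8.21 and 7.06 CPM in HCT116, 56.3, 73.9 and 55.6 CPM in MHCC97H and 29.8, 27.6 and 24.9 CPM in A549. That was 7.79-fold less than in MHCC97H and 3.46-fold less than in A549, and the groups did not overlap. GATA4, at 0 reads in HCT116, was at least 64.8-fold lower than in A549. FOXA2 had at most 0.0668 CPM in HCT116 and 22.6 to 50.1 CPM in the other lines. FOXA1 differed by -3.09 from MHCC97H and -2.91 from A549 on the log2 scale. The epithelial factor ELF3 was lower at an adjusted p of 0.00744 against A549, but its libraries overlapped, with 88, 204 and 68.9 CPM in HCT116 and 146, 436 and 230 CPM in A549. HNF4G lay between the other lines. GATA5, GATA6, FOXA3, KLF4 and KLF5 did not set HCT116 apart, and CDX1, ATOH1, ISX and ASCL2 had too few reads to be tested.

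The differentiation genes of the intestine were more often lower than higher in HCT116. Of 28 listed, 18 were tested: 9 were lower than in each line (50.0%, beside 17.8% of all genes), 2 higher (11.1%, beside 19.0%) and 2 between. Between 7 and 10 were lower when a library or a treatment was left out. The median was -4.76 against the mean of the other lines (-4.48 with groups at 0 reads set to the floor). It was -7.24 against MHCC97H but only -1.21 against A549. AGR2, a chaperone of mucus secretion, had 0, 0.0668 and 0 CPM in HCT116, 187, 237 and 226 CPM in MHCC97H and 24.3, 68.1 and 53.1 CPM in A549. The surface protease ANPEP had 0.51, 0.601 and 0.754 CPM in HCT116, 158, 185 and 170 CPM in MHCC97H and 16.7, 23.9 and 27.6 CPM in A549. CDH17, liver-intestine cadherin, had 0.17, 0.334 and 0.323 CPM beside 128 to 134 CPM in MHCC97H and 9.29 to 23.7 CPM in A549. In each of these, and in the adhesion protein CEACAM6 and the mucin MUC13, HCT116 was lowest without overlap, and MHCC97H was highest. KRT20, the keratin of differentiated colonocytes, had 0.34, 0.868 and 0.808 CPM in HCT116 and 1116, 1943 and 2409 CPM in MHCC97H, but its call against A549 (1.26, 1.98 and 0.957 CPM, adjusted p 0.0303) was lost without any single HCT116 library or without the untreated or GSK126 library of A549 (adjusted p 0.0585 to 0.121). The higher members were CA2, carbonic anhydrase II, at 24.5, 11 and 27.3 CPM beside 8.16 to 8.44 CPM in MHCC97H and 1.13 to 2.37 CPM in A549, and the keratin KRT23. The call of CA2 was lost without the S2101 library of HCT116 (adjusted p 0.053). DPP4, a brush border peptidase, lay between the lines, and FCGBP did not set HCT116 apart.

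**Figure D2:**
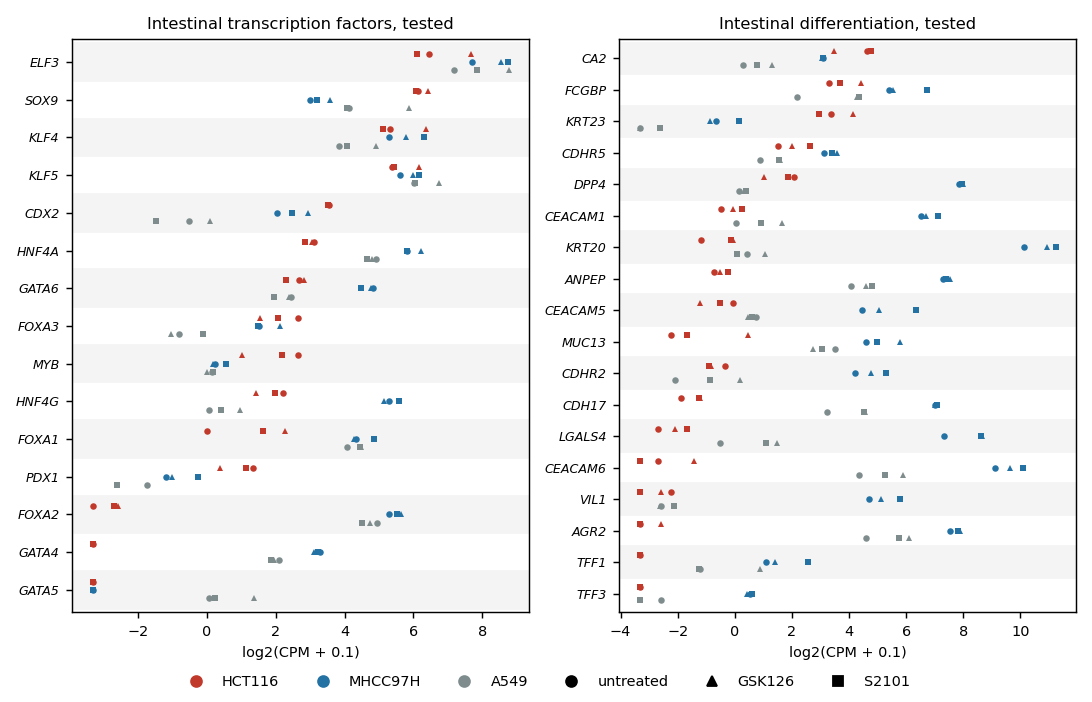
Level of tested intestinal transcription factors (left) and intestinal differentiation genes (right) as log2(CPM + 0.1) in the 9 libraries, coloured by line and shaped by treatment, genes ordered by their mean in HCT116. CDX2 and SOX9 are highest in HCT116, and AGR2, CDH17 and ANPEP are lowest there and highest in MHCC97H.

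Most epithelial adhesion and junction genes were higher in HCT116. Of 27 tested members 21 were higher than in each line (77.8%, beside 19.0% of all genes), 5 were not set apart and 1, the claudin CLDN1, was lower. Members near 0 in both other lines, among them CDH3, GRHL2, ESRP1, OVOL1 and RAB25, passed the filter on low counts only through HCT116. Their calls could hardly come out otherwise, and they raise both the share and the median. The X-linked claudin CLDN2, not counted here, was lower as well. The list's median against the mean of the other lines was 4.21 (4.22 with groups at 0 reads set to the floor). EPCAM, the epithelial adhesion molecule of carcinomas, had 220, 286 and 228 CPM in HCT116, 0.203, 0.583 and 0.566 CPM in MHCC97H and 2.39, 1.92 and 3.32 CPM in A549. It was 531-fold higher than in MHCC97H (log2 9.05, SE 0.29, adjusted p 4.22e-08) and 96.1-fold higher than in A549 (log2 6.59, SE 0.24, adjusted p 1.12e-07). CDH1, the gene of E-cadherin, had 89.3, 161 and 67.1 CPM in HCT116, 6.01, 6.02 and 9.46 CPM in MHCC97H and 13.9, 20.9 and 27.6 CPM in A549, so that even the lowest HCT116 library lay above all others. It lies beside CDH3 on chromosome 16. GRHL2, a factor that keeps epithelial genes active, stood at 32.1, 29.3 and 23.5 CPM in HCT116 and had 1 read in all in each other line. ESRP1, which splices epithelial isoforms, had 191, 199 and 155 CPM, beside at most 0.0647 CPM in MHCC97H and 0.384 CPM in A549. OVOL1, a repressor of the mesenchymal state, had 9.52, 16.6 and 20.7 CPM in HCT116 and at most 0.128 CPM elsewhere. The keratins KRT8 and KRT18, shared by simple epithelia, did not set HCT116 apart: KRT8 had 1478, 1752 and 1990 CPM in HCT116 and 1675 to 2805 CPM in A549. Per length, the mean RPKM in HCT116 was 862 for KRT8, 584 for KRT19, 151 for EPCAM and 23.3 for CDH1.

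**Figure D3:**
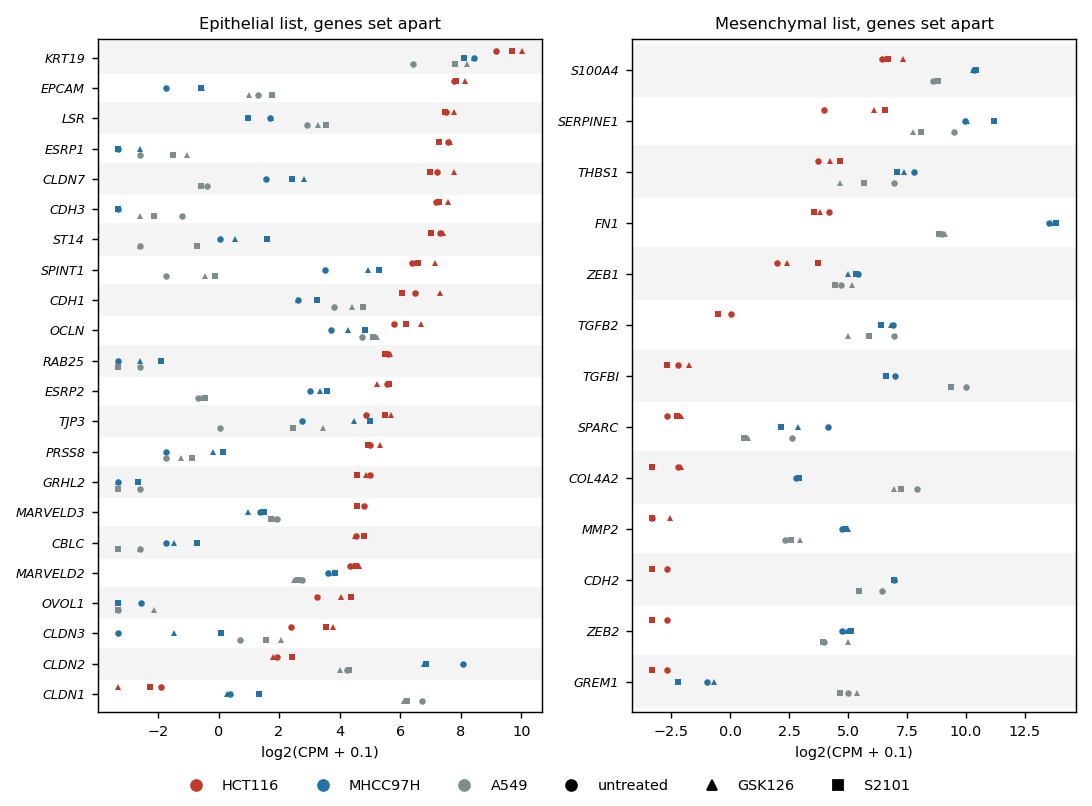
Level as log2(CPM + 0.1) in the 9 libraries of set apart members of the epithelial (left) and mesenchymal (right) lists, coloured by line and shaped by treatment, genes ordered by their mean in HCT116. EPCAM, ESRP1 and GRHL2 are highest in all 3 HCT116 libraries, and CDH2, ZEB2 and TGFBI are lowest there.

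The promoters of this list are shown because its repressors of the ZEB family, lower in HCT116, are known to read the E-box CACCTG. The motif was searched as CACCTG and CAGGTG, which are the same site read from either strand, in the 250 bases before each gene's start (RefSeq, GRCh38.p14). It was present in 2 of 8 promoters of set apart higher members for which the reference table holds one (25.0%), in 16.5% of 11631 promoters of tested autosomal genes, and in 17.5% of all 27305 in the table. The share was the same over all tested members of the list, called or not (3 of 12, 25.0%), and 18.7% over all autosomal genes set apart higher. The 2 are those of RAB25, a small GTPase of apical recycling (chr1:156060910-156061159, plus strand), and OCLN, occludin of the tight junction (chr5:69492297-69492546, plus strand), with the motif in capitals. A match is a string of letters and not a measured site.
RAB25: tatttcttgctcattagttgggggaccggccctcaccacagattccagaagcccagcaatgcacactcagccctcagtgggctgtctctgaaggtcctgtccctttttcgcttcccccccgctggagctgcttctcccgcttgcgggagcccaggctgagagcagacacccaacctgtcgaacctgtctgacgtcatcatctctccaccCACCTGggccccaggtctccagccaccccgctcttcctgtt
OCLN: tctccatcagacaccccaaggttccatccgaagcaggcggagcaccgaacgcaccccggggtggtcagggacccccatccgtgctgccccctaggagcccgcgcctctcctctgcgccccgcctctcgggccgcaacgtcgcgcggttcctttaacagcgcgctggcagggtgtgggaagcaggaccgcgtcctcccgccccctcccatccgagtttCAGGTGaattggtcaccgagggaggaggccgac
RAB25 had 47.8, 50.8 and 44.8 CPM in HCT116 and at most 0.17 CPM elsewhere. OCLN differed less, at 55.1, 104 and 73.6 CPM in HCT116, 13 to 28.5 CPM in MHCC97H and 26.7 to 37.8 CPM in A549, and its groups did not overlap either.

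Of 26 mesenchymal genes, all tested, 13 were lower in HCT116 than in each line (50.0%, beside 17.8% of all genes), none was higher, and 4 lay between, with a median of -4.21 (-3.71 with groups at 0 reads set to the floor). CDH2, the gene of N-cadherin, had 0.0567, 0 and 0 CPM in HCT116, 123, 126 and 124 CPM in MHCC97H and 86, 43.6 and 44.1 CPM in A549. ZEB2 had 1 read in the 3 HCT116 libraries, 26.5 to 34.6 CPM in MHCC97H and 15 to 32.1 CPM in A549. ZEB1 was present at a lower level, with 3.8, 5.14 and 13.2 CPM in HCT116, 43, 31.8 and 40.6 CPM in MHCC97H and 25.8, 35.7 and 21.6 CPM in A549. TGFBI, a matrix protein induced by TGF-beta, had 0.0539 to 0.2 CPM in HCT116, 96.8 to 126 CPM in MHCC97H and 652 to 1019 CPM in A549. FN1, fibronectin, had 18.1, 14 and 11.6 CPM in HCT116, 505, 556 and 463 CPM in A549 and 11928, 13859 and 14629 CPM in MHCC97H. In all these genes the HCT116 libraries lay below all others. Vimentin (VIM) did not set HCT116 apart: it was at 1.42, 2.4 and 6.41 CPM in HCT116 and 6.01, 3.88 and 6.4 CPM in MHCC97H, against 1004 to 1666 CPM in A549. CAV1 and CAV2, the caveolins, did not pass the test against A549 (adjusted p 0.517 and 0.125).

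NRF2 targets were lower in HCT116 almost throughout. Of 24 autosomal members tested, 22 were lower than in each line (91.7%, beside 17.8% of all genes), with a median of -2.45 against the mean of the other lines. The exceptions were NFE2L2, the gene of NRF2 itself, at 113, 134 and 89.6 CPM in HCT116 and 80.3 to 141 CPM elsewhere, and KEAP1. KEAP1 had 84.6, 85 and 70 CPM in HCT116, 12.7, 13.6 and 11.2 CPM in MHCC97H and 84.2, 60.9 and 65.7 CPM in A549, so that it differed from MHCC97H alone. The strongest differences were those of aldo-keto reductases and other enzymes that detoxify carbonyls. AKR1B10 had 1.08, 2.8 and 1.99 CPM in HCT116, 4001, 3124 and 3301 CPM in MHCC97H and 2682, 2395 and 2545 CPM in A549, 1309-fold more than in HCT116 at the nearer line (log2 -10.35, SE 0.33, adjusted p 5.17e-08). AKR1C1, AKR1C2 and AKR1C3 had 0.34 to 1.94 CPM in HCT116 and 474 to 1809 CPM elsewhere, although these paralogs share sequence and their reads may be split among them. ALDH3A1 had 0.85, 0.668 and 0.97 CPM in HCT116 and 419 to 729 CPM in the other libraries. GPX2, the gut glutathione peroxidase, had 0.453, 0.467 and 0.539 CPM in HCT116, 215, 215 and 276 CPM in MHCC97H and 68.7, 69.7 and 69.1 CPM in A549.

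Targets that most cells keep active differed less. NQO1, a quinone reductase, had 255, 308 and 501 CPM in HCT116, 1137, 1029 and 1133 CPM in MHCC97H and 1521, 1302 and 1478 CPM in A549. GCLM, a subunit of the enzyme that starts glutathione synthesis, had 27.4, 52.4 and 64.6 CPM in HCT116, 540, 449 and 536 CPM in MHCC97H and 210, 208 and 207 CPM in A549, 4.46-fold more than in HCT116. TXNRD1, thioredoxin reductase, had 550, 1364 and 1059 CPM in HCT116, 5861, 6297 and 6676 CPM in MHCC97H and 2381, 2561 and 2082 CPM in A549. In these genes and in ABCC3, HMOX1 and GCLC, the untreated library was the lowest of HCT116, and all 3 stayed below the other lines. The call of GCLC was lost without the untreated or S2101 library of A549 (adjusted p 0.11 and 0.0704) or of HCT116 (0.0566 and 0.0665), and that of OSGIN1 without the untreated or S2101 library of A549 (0.0513 and 0.0655). NRF2 with its partners is known to bind the antioxidant response element, and its core, TGACNNNGC or GCNNNGTCA on the other strand, was searched in the same 250 bases. It was found in 5 of 17 promoters of set apart lower members with an entry (29.4%), in 11.9% of those of all tested autosomal genes and in 3013 of the 27305 of the whole table. Over all tested members of the list, called or not, it was in 5 of 19 (26.3%), and over all autosomal genes set apart lower in 12.7%. The 5 are shown with the core in capitals: GCLM (chr1:93909431-93909680, minus strand), TXNRD1 (chr12:104215529-104215778, plus strand), PGD of the pentose phosphate pathway (chr1:10398814-10399063, plus strand), malic enzyme ME1 (chr6:83431052-83431301, minus strand) and GPX2 (chr14:64942746-64942995, minus strand).
GCLM: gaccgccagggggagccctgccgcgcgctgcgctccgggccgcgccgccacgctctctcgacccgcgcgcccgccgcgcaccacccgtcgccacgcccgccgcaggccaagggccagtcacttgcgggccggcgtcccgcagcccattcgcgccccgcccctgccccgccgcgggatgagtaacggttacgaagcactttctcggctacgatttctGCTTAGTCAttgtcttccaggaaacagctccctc
TXNRD1: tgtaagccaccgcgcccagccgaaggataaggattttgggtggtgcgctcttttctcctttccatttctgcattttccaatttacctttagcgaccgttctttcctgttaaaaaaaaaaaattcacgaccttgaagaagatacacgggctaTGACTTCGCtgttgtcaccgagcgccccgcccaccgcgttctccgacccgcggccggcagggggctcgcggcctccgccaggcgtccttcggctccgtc
PGD: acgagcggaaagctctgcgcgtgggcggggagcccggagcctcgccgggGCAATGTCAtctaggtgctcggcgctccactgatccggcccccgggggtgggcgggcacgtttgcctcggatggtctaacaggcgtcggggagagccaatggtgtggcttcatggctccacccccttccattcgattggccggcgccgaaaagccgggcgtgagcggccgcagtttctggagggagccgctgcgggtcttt
ME1: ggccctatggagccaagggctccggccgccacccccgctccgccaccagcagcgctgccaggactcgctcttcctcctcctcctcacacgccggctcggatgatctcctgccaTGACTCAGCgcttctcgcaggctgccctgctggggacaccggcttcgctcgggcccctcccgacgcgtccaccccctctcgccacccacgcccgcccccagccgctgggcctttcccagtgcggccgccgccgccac
GPX2: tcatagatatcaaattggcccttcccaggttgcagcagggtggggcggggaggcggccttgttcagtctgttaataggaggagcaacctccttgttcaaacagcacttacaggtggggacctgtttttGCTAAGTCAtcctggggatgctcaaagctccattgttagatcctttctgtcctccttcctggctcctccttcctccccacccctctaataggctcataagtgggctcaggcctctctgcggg
The presence of these letters was not tested as a source of the difference in level. PGD had 155, 237 and 192 CPM in HCT116 and 949 to 1557 CPM elsewhere, and ME1 64.3, 132 and 111 CPM beside 144 to 200 CPM. Both were lowest in all HCT116 libraries.

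The p53 pathway leaned the other way. Of 24 genes tested, 12 were higher in HCT116 than in each line (50.0%, beside 19.0% of all genes) and 2 lower, with a median of 0.89, and between 8 and 12 were higher when a library or a treatment was left out. CDKN1A, the cell cycle inhibitor p21, had 139, 204 and 171 CPM in HCT116, 29.2, 76.3 and 109 CPM in MHCC97H and 42.5, 93.9 and 70.8 CPM in A549, a difference of 2.66-fold and 2.61-fold without overlap. BTG2, a brake on proliferation, had 15.2, 20.1 and 18.6 CPM in HCT116 and 2.84 to 6.68 CPM elsewhere. PLK3 and GADD45A, stress response genes, and SESN1 were higher by 1.03 to 1.86 on the log2 scale against either line. BAX, the mediator of mitochondrial death, was the exception among the named members: it had 38.8, 39.1 and 38.8 CPM in HCT116, 88.6, 87.4 and 81.9 CPM in MHCC97H and 91.5, 68.3 and 73.7 CPM in A549. TNFRSF10B and GDF15 did not set HCT116 apart.

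**Figure D4:**
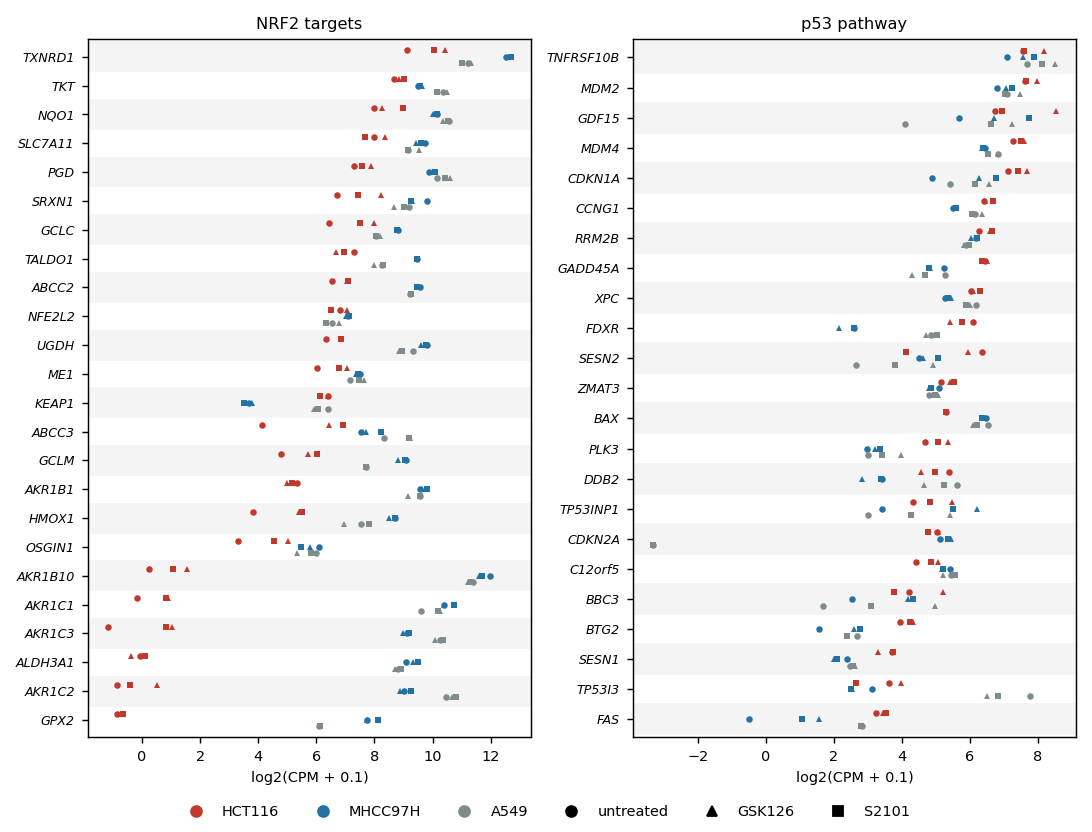
Level as log2(CPM + 0.1) in the 9 libraries of NRF2 targets (left) and genes of the p53 pathway (right), coloured by line and shaped by treatment, genes ordered by their mean in HCT116. AKR1B10, AKR1C1 and GPX2 are near 1 CPM in HCT116 and far higher in the other lines, while CDKN1A and BTG2 are highest in HCT116.

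In the mismatch repair list 2 of 12 genes were lower in HCT116 (16.7%) and 3 higher (25.0%), near the 17.8% and 19.0% of all genes. MSH3, which recognises larger loops, had 8.61, 7.55 and 7.06 CPM in HCT116, 25.4, 23.8 and 21.7 CPM in MHCC97H and 43.4, 42.5 and 37 CPM in A549. The treatments moved its HCT116 level little and the groups lay apart. PMS1 and RFC1 were higher by 0.76 to 0.90 on the log2 scale against either line. PMS2 was higher at an adjusted p of 0.0451 against A549, a call lost without any of 8 of the 9 libraries (adjusted p 0.0535 to 0.216 in those fits). MSH6 and PCNA did not set HCT116 apart, and MSH6 ranged from 384 to 1392 CPM within HCT116.

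Of the genes followed for their known role in these lines or as drug targets, TGFBR2, a TGF-beta receptor, was lower, at 35.3, 47.3 and 45.4 CPM in HCT116, 226, 205 and 203 CPM in MHCC97H and 130, 112 and 125 CPM in A549. KDM1A, the gene of LSD1, was higher, at 246, 176 and 214 CPM beside 91.6 to 101 CPM in MHCC97H and 79.1 to 133 CPM in A549, 2.18-fold and 2.12-fold. EZH2 had 107, 70.2 and 77.7 CPM in HCT116, 64.7, 45.5 and 45.3 CPM in MHCC97H and 60.2, 23 and 44.8 CPM in A549, without overlap, and its call was lost without the GSK126 library of HCT116 (adjusted p 0.0609) or the S2101 library of MHCC97H (0.0551). CDKN2A had 32.2, 33 and 27.2 CPM in HCT116, 34.7 to 43.4 CPM in MHCC97H and no read in A549. STK11 differed from A549 alone and PIK3CA lay between. CTNNB1, beta-catenin, was higher by 0.29 and 0.39 on the log2 scale, and its call was lost in 8 of the 9 fits without a library (adjusted p 0.0621 to 0.186).

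Among 14 tested genes of the intestinal stem cell and WNT list, 5 were higher (35.7%, beside 19.0% of all genes), 1 lower (7.1%, beside 17.8%) and 4 between, where 5.39% of all genes lay. CCND1, cyclin D1, had 645, 859 and 713 CPM in HCT116, 203, 167 and 160 CPM in MHCC97H and 525, 299 and 428 CPM in A549. RNF43, a ligase that removes WNT receptors, had 65.8, 68.4 and 55 CPM in HCT116, 32.5, 29.8 and 29.6 CPM in MHCC97H and 5.64, 6.53 and 10.6 CPM in A549. Both lay above every other library. PROM1 had 25.8, 36.9 and 25 CPM in HCT116 and no read in MHCC97H, at least 460-fold less. NKD1 and NOTUM, feedback inhibitors of WNT, were higher too, NOTUM with overlap and with a call that 4 of the 9 single libraries decided (adjusted p 0.084 to 0.167 without the untreated or S2101 library of HCT116 or of MHCC97H). LGR4, a receptor for R-spondins, was lower, at 8.27, 12.1 and 13.5 CPM beside 122 to 143 CPM in MHCC97H and 222 to 259 CPM in A549. AXIN2, the usual readout of WNT signalling, lay between, at 17.8, 10.6 and 12.3 CPM in HCT116, 100, 75 and 66.9 CPM in MHCC97H and 4.98, 2.75 and 5.04 CPM in A549. CD44 and DKK1 did not set HCT116 apart, and the stem cell markers LGR5 and ASCL2 had at most 0.0567 CPM in HCT116.

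Of 11 tested ERBB receptors and ligands, 5 were higher in HCT116 (45.5%, beside 19.0% of all genes) and 2 lower (18.2%, near the 17.8% of all genes), with a median of 1.55. The ligands amphiregulin and TGF-alpha lay above all libraries of the other lines: AREG had 301, 659 and 354 CPM in HCT116, 99.8, 71.5 and 121 CPM in MHCC97H and 68.6, 89.2 and 83.8 CPM in A549. TGFA had 51.4, 88.9 and 87.9 CPM beside 12.9 to 24.7 CPM in the others. Epiregulin (EREG) had 681, 1029 and 428 CPM beside 182 to 299 CPM, and HBEGF 8.96, 16.7 and 7.76 CPM beside 1.55 to 4.99 CPM, a call lost without the GSK126 library of HCT116 (adjusted p 0.0599). The receptor genes went separate ways. ERBB2 was higher, with 79, 74.8 and 78.5 CPM in HCT116, 5.13, 5.89 and 4.47 CPM in MHCC97H and 56.5, 53.5 and 46.6 CPM in A549. EGFR was lower, at 57.6, 110 and 98.2 CPM in HCT116, 168, 160 and 163 CPM in MHCC97H and 247, 216 and 198 CPM in A549. In both the groups lay apart, and ERBB3 passed the test against A549 alone. NRG1, the ligand of ERBB3 and ERBB4, had 1.19, 1.4 and 1.45 CPM in HCT116 and 20.7 to 168 CPM elsewhere.

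Of 25 ATF4 targets 4 were higher (16%) and 6 lower (24%), near the 19.0% and 17.8% of all genes. ASNS, asparagine synthetase, had 343, 274 and 285 CPM in HCT116, 62.8, 51.4 and 75.4 CPM in MHCC97H and 91.8, 100 and 138 CPM in A549. PHGDH, the entry to serine synthesis, had 208, 171 and 169 CPM in HCT116, 11.4 to 15.4 CPM in MHCC97H and 54.5 to 80.1 CPM in A549. CBS, which starts transsulphuration, went the other way, with at most 0.108 CPM in HCT116 and 17.8 to 35.1 CPM elsewhere. VLDLR, a lipoprotein receptor, had at most 0.134 CPM in HCT116 and 14.6 to 64.1 CPM elsewhere. In none of these 4 did the groups overlap. Left out in turn, single libraries and treatments gave 4 to 9 higher and 2 to 7 lower members, and the calls of ALDH1L2 and CEBPB were each lost in 4 such fits without 1 library. With 1 library left out they rested on the GSK126 and S2101 libraries of HCT116 for both genes (adjusted p 0.0713 to 0.16), on the untreated and S2101 libraries of MHCC97H for ALDH1L2 (0.0565 and 0.057) and on the GSK126 and S2101 libraries of A549 for CEBPB (0.144 and 0.0857).

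In the cholesterol synthesis list 3 of 21 tested genes were higher (14.3%, beside 19.0% of all genes) and 8 lower (38.1%, beside 17.8%). The count of lower genes was 4 without the S2101 library of HCT116 or that of A549, 5 without the GSK126 library of A549, 2 without all S2101 libraries and 1 without the treatment as a term. The count of higher genes was 1 without the untreated or GSK126 library of HCT116 and 1 without the treatment term, and 2 without the untreated or GSK126 library of A549. SREBF2, the gene of the factor that drives the pathway, had 229, 493 and 335 CPM in HCT116, 82.2, 158 and 135 CPM in MHCC97H and 99.4, 220 and 173 CPM in A549, higher at each treatment. SQLE, squalene epoxidase, was lower at each treatment, with 71.5, 261 and 144 CPM in HCT116, 189, 460 and 342 CPM in MHCC97H and 140, 497 and 310 CPM in A549. The GSK126 library was the highest of each line for SQLE, MSMO1 and INSIG1, so the libraries of different lines overlapped. For SQLE, HCT116 kept the lowest place within each treatment, while A549 exceeded MHCC97H under GSK126 only. Without the treatment as a term the call of SQLE was lost (adjusted p 0.16), as were those of MSMO1 and INSIG1 (0.433 and 0.557) and of MVK, FDPS, CYP51A1 and DHCR7 (0.139 to 0.517). Those of MSMO1 and INSIG1 were also lost without the untreated or S2101 library of HCT116 or the S2101 library of A549 (adjusted p 0.0796 to 0.143), and for MSMO1 without the GSK126 library of A549 (0.0849).

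The MHC list had 6 higher genes (37.5%, beside 19.0% of all genes) and 1 lower (6.2%, beside 17.8%) among 16 tested. The 6 include the class II genes HLA-DRA and HLA-DRB1, which were not tested when 10 CPM in 3 libraries was asked for. That setting left 3 higher. Between 4 and 6 were higher when a library or a treatment was left out, the 4 without the untreated library of MHCC97H. HLA-B had 119, 152 and 107 CPM in HCT116, 14.5, 25.4 and 23 CPM in MHCC97H and 11.3, 19.8 and 17.9 CPM in A549. HLA-C had 277, 309 and 248 CPM beside 40 to 100 CPM in the others, while B2M, their shared light chain, did not set HCT116 apart. HLA genes are alike in sequence and variable between lines, so part of these differences may be in how reads were assigned, which was not tested. PSMB8, a subunit of the immunoproteasome, was lower, at 0.0668 to 0.283 CPM beside 9.15 to 23.7 CPM.

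Of 13 tested HOX genes 4 were higher (30.8%, beside 19.0% of all genes), HOXA6, HOXA7, HOXA9 and HOXA10, and 1 was lower (7.7%, beside 17.8%). The call of HOXA6 was lost without any 1 of the HCT116 or MHCC97H libraries (adjusted p 0.0588 to 0.135) and with DESeq2 (0.163). HOXA9, a factor of posterior position, had 110, 130 and 86 CPM in HCT116, 0.0675, 0.259 and 0.283 CPM in MHCC97H and 0.995, 0.448 and 0.574 CPM in A549. HOXA10 had 38.5, 39.9 and 29.1 CPM beside 6.21 to 14.7 CPM, and HOXA7 23.2, 17 and 13.3 CPM beside 0.194 to 7.65 CPM. In these genes the groups did not overlap, whereas HOXA11 and HOXA3 next to them did not set HCT116 apart. HOXA2 was lower, at 0.593 to 1.36 CPM. The 19 HOXB and HOXC genes of the list are listed at 0 in all 9 libraries, and nothing is drawn from them.

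Liver genes were mostly lower or not apart: of 15 tested 8 were lower (53.3%, beside 17.8% of all genes) and none higher. Between 7 and 10 were lower when a library or a treatment was left out. Most of the 8, FGA among them, were at low levels and were not tested when 10 CPM in 3 libraries was asked for. That setting left 1 lower. FGA, a fibrinogen chain, had no read in HCT116, 6.21, 10 and 5.89 CPM in MHCC97H and 7.1, 9.09 and 4.66 CPM in A549. APOH, a plasma glycoprotein, had no read in HCT116 and 1.28 to 22 CPM elsewhere. CPS1 of the urea cycle was shared by HCT116 (47.2, 49.9 and 50.6 CPM) and A549 (46.4, 46.5 and 55.6 CPM) and was near 0 in MHCC97H. Of 20 listed lung genes 9 were tested. Of these, 3 were higher in HCT116 (33.3%, beside 19.0% of all genes), all at low levels and none of them tested when 10 CPM in 3 libraries was asked for: the lung and thyroid factor NKX2-1 had 1.47, 0.801 and 0.7 CPM in HCT116, 0 in MHCC97H and at most 0.192 CPM in A549, LAMP3 had 4.76, 9.88 and 5.55 CPM and AGER 7.76, 13.4 and 7.33 CPM. NKX2-1 passed the filter on low counts only through HCT116, so nothing is drawn from the share of this list. In these bulk libraries a low level in every cell and a high level in few cells cannot be told apart.

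The difference between HCT116 and the other lines varied by autosome. On chromosome 13 the median over 262 tested genes was 0.72 on the log2 scale against the mean of the other lines, 1.19 against MHCC97H and 0.34 against A549, and 39.3% of its genes were set apart higher and 5.7% lower. CDX2, PDX1 and KLF5 are among the genes of that chromosome. Chromosome 22 had a median of 0.41 (0.43 and 0.41 against the single lines), with 33.1% higher and 6.7% lower, and chromosomes 4 and 6 had 0.30 and 0.27. The lowest medians were those of chromosome 20, at -0.30, and of chromosomes 7 and 12, at -0.27 each. Of the genes of chromosome 12, 26.5% were lower and 11.5% higher. Computed in each treatment from log2(CPM + 0.5), the median was 0.64, 0.69 and 0.73 on chromosome 13 and -0.25, -0.31 and -0.29 on chromosome 20 in the untreated, GSK126 and S2101 libraries. Copy number was not measured, and its part in these medians was not tested.

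**Figure D5:**
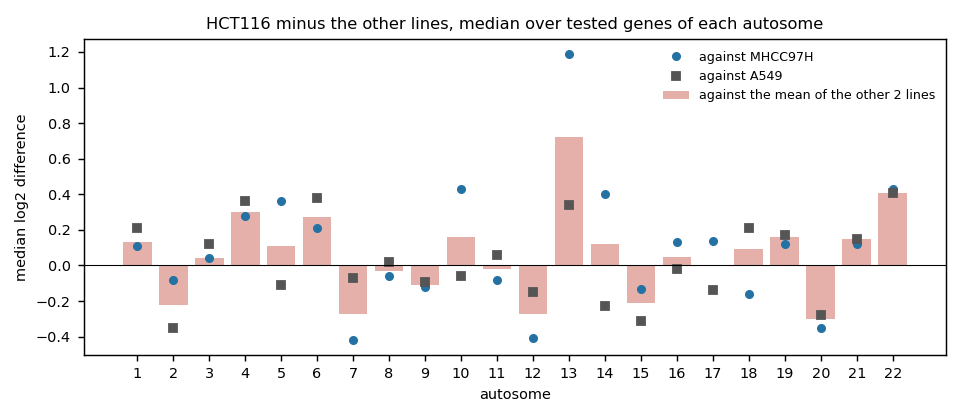
Median log2 difference of HCT116 from the mean of the other lines (bars), from MHCC97H (circles) and from A549 (squares) over the tested genes of each autosome. Chromosome 13 is highest at 0.72 and chromosome 20 lowest at -0.30, and on chromosomes 5, 8, 10, 11, 14, 16, 17 and 18 the single lines lie on opposite sides of 0.

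The TSA libraries, which the main tests did not use, give the same order for most of these genes. HCT116 was the highest of the 3 TSA libraries for 2144 of the 2829 genes set apart higher (75.8%), beside 38.2% of all genes tested, and the lowest for 2024 of the 2654 set apart lower (76.3%), beside 36.4%. For genes at least 4-fold apart from each line the shares were 86.2% in both directions. All 30 genes named at the extremes kept the place of HCT116 under TSA, with 1 library per line and no test. CDX2 stood at 12 CPM in HCT116, 3.79 CPM in MHCC97H and 0.134 CPM in A549 under TSA, EZH2 at 62.8, 59.3 and 54.9 CPM. CDKN1A no longer had its highest level in HCT116, at 511 CPM beside 700.5 CPM in MHCC97H and 275 CPM in A549.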

How the data were processed

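Each library came as its own table, in which the authors gave every gene a read count and an RPKM value, a level per transcript length and depth, per the file headers. The submitters' processing notes name GRCh38, while aligner, counter and strand setting were not stated in what was read here. The deposited counts were tested, and the deposited RPKM values served only to set genes of 1 line side by side. Of 25647 genes in all tables, 97.3% were matched to RefSeq (GRCh38.p14) for their chromosome, and 11 entries that name no gene were dropped. Libraries held 14468304 to 19061367 counts, so that 3 reads over a line's 3 libraries served as the floor. Intervals and floors cover counting error only.

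The 9 libraries were fitted with edgeR 4.0.16 (R 4.3.3) on the counts, with treatment and line as terms, TMM factors, a filter on low counts by line, the quasi-likelihood test and 4 residual degrees of freedom. Adjusted p-values are Benjamini-Hochberg values over 15763 genes, and calls are given for the 14903 autosomal ones. CPM use the TMM factors. The script was tested on simulated data. Alternatives were DESeq2 1.42.0, other size factors, other filters, no treatment term, all 12 libraries, the other lines as 1 group, a 2-fold limit, and each library or treatment left out.

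Named genes were the 15 higher and 15 lower protein-coding autosomal genes farthest from the nearer line, with at least 10 CPM on average and no overlap. Named too were all intestinal transcription factors, up to 6 set apart and 2 other members of each of 15 other lists, and genes known for these lines or as drug targets. Some genes that these rules name are not reported here, nor drawn in the figures, although they stay in every fit and count. The lists and members were chosen with earlier results of these data known. Other genes, among them CDH1, EPCAM, OCLN, FN1, ZEB1, VIM, NQO1, GCLM, TXNRD1, PGD, ME1, AXIN2 and the neighbours of HBE1 and CHFR, were chosen after their values were seen.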

Additional observations from a re-analysis of the deposited data

Results flagged for a closer look

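In 5 of the genes followed by name, HCT116 differed from MHCC97H in one direction and from A549 in the other, each call from edgeR's quasi-likelihood test. The difference between MHCC97H and A549 is then the sum of both called differences, so it is given as a description with no test. For HNF4G, a nuclear receptor of the gut, MHCC97H exceeded A549 by 4.91 on the log2 scale, with HCT116 at -3.47 from MHCC97H and 1.44 from A549. DPP4, a brush border peptidase, gave 7.77, and ABCA3, a lipid transporter of the lung, gave -3.86. SLC7A5, an amino acid transporter, gave -2.27. PIK3CA gave 1.33.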

How the results depend on the processing

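With MHCC97H and A549 as 1 group the genes called against them were 2111 higher and 2122 lower in place of 4911 and 4558. That fit has no contrast with a single line, so it gives no set apart genes. Asking for a 2-fold difference from each line left 1411 set apart higher and 1369 lower. Under the other planned settings each of these counts of genes stayed within 1.5 times its main value. Leaving out 1 library in turn gave 4121 to 4994 higher and 3821 to 4623 lower against the mean of the other lines, and 2323 to 2833 set apart higher and 2179 to 2691 lower. It gave 8548 to 10062 genes against MHCC97H, 7083 to 8837 against A549 and 6845 to 8569 between MHCC97H and A549. Leaving out 1 treatment gave 1944 to 2503 set apart higher and 1861 to 2467 lower. The treatment was the replicate block of the main fit. With no replicate block 2422 genes were set apart higher and 2314 lower. No other pairing of the libraries was possible because the number of a library is its treatment.

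Of the 115 named genes set apart, 78 stayed so in every alternative with a contrast against each line and 37 were lost in at least 1. The direction against the mean of the other lines turned for KLF5 when all 12 libraries were fitted (0.22, adjusted p 0.68, against -0.45). The cause was not tested. The median of the mismatch repair list went from 0.07 to between -0.09 and 0.35, and that of the stem cell and WNT list from 0.29 to between -0.34 and 0.61, so no direction is given for either list. A gene with a few reads in a line is limited by depth, and its fitted fold is no bound.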
